A study of Homo sapiens with 12 samples.

Results

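The genes described here are the abundant members of the large ZNF series of zinc finger genes in ARPE-19 cells. They are the protein-coding genes whose symbol is ZNF followed by digits only, without ZNF106 and ZNF770. They were chosen by their mean level over the 12 libraries, which had to reach 10 CPM (reads of the gene per 1000000 reads of the library). This rule chose 228 genes of 475 such protein-coding ZNF genes and of 60605 lines in the count table. Levels by library, group means and sums given below were also scaled between libraries, as described with the processing. ARPE-19 is an immortal human culture derived from the retinal pigment epithelium (RPE) and an established cell line, and its messenger RNA was sequenced from 4 groups of 3 libraries. For WT the labels give no open reading frame (ORF) and no time. GFP, GSTA4 and OSK are stable lines that expressed an ORF for 4 days: the fluorescent protein as a control, glutathione S-transferase alpha 4, and OSK, read here as the reprogramming factors POU5F1, SOX2 and KLF4. The labels name no promoter and do not say whether a group was 1 line or several, so the effect of an ORF and other differences between the lines cannot be told apart.

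C2H2 zinc finger proteins bind DNA, and some bind RNA or protein, through short folded repeats that each hold a zinc ion. Many of the human ZNF genes also encode a KRAB box, a domain that recruits the corepressor TRIM28 and with it the histone methyltransferase SETDB1 and heterochromatin proteins, and these KRAB zinc finger proteins are known mainly as repressors of transposable elements. Others carry a SCAN box, which pairs such proteins with each other, or neither domain, and several of these work in chromatin complexes, in splicing or on the ribosome.

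All 228 genes were found in the GENCODE 29 annotation (GRCh38), and 94 of them lie on chromosome 19. In the translated coding transcripts a KRAB box was found by a letter pattern in 135, of which 73 lie on chromosome 19, and not in 93. A SCAN box was found in 17, of which 11 also had a KRAB box. The number of fingers found ran from 0 to 32, with a median of 12 with KRAB and 8 without. The pattern misses divergent KRAB boxes, such as those of ZNF473 and ZNF714. These genes were placed in the group without one, though ZNF473 is a KRAB gene by its literature. Of the 228 genes, 155 overlap another annotated gene, 82 of them on the same strand and 119 on the opposite strand. The strand setting of the counting is not given in the sources used here, so reads of a gene and its overlapping or closely related neighbours may not be fully separated.

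The level threshold cut through a continuum. Just inside it stood ZNF793, ZNF548 and ZNF852, with means of 10.12, 10.12 and 10.08 CPM. Just outside stood ZNF283, ZNF671 and ZNF124, with 9.81, 9.77 and 9.71 CPM. The 2 genes left out by name lie on chromosome 15. ZNF106 had means of 309.2, 468.4, 955.0 and 153.9 CPM in WT, GFP, GSTA4 and OSK, and ZNF770 had 35.0, 26.6, 31.8 and 22.9 CPM in the same order.

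Total counts ran from 12630675 to 17045454 per library. In GFP replicate 1 the number of named genes with a read was 27349, and elsewhere it lay between 19488 and 22073. Of the RPE markers MITF, OTX2, TYRP1 and PMEL were expressed in every group, whereas RPE65 and TTR averaged below 1 CPM in each. The summed level of the 11 RPE markers in the table over WT, GFP, GSTA4 and OSK was 2389.9 to 2646.7, 2126.0 to 2445.9, 1548.4 to 1616.5 and 1350.3 to 1425.6 CPM. KRT8 and KRT18 carried most of this sum, and KRT8 fell from a mean of 1247.1 to 842.7 CPM between WT and GFP. RLBP1, BEST1, MITF, TYRP1, PMEL and SERPINF1 were higher in GFP than in WT, by 0.27 to 1.85 on the log2 scale. KRT18 was lower there (-0.46, adjusted p 0.000301) and OTX2 was not called (0.05). Against GFP, RLBP1, BEST1, MITF, OTX2, TYRP1, PMEL and KRT8 were lower in both GSTA4 (-2.66 to -0.31) and OSK (-2.89 to -0.26). SERPINF1 and KRT18 were lower than GFP in OSK only (-0.80 and -0.46). The 10 proliferation genes summed to 61.7 to 73.2, 254.7 to 279.6, 188.2 to 192.5 and 522.3 to 633.2 CPM in the same groups, while mitochondrial genes took from 5.95% to 7.78% of reads. The 5 fibroblast markers summed to 766.1 to 786.7, 706.2 to 775.8, 528.6 to 556.7 and 337.5 to 396.8 CPM, with COL3A1, DCN and LUM at or under a floor of 3 reads in every library. PDGFRB carried most of this sum, with means of 651.2, 660.0, 539.4 and 342.7 CPM in the same order. Of the neuronal and retinal markers, MAP2 averaged 164.2, 84.5, 88 and 180.1 CPM in WT, GFP, GSTA4 and OSK and was higher in OSK than in GFP (log2 fold change 1.09, adjusted p 6.74e-08), while TUBB3, ARR3 and CRX averaged at most 6.23 CPM. The part of these differences in the ZNF results was not tested. Whether replicate libraries are separate cultures is not stated, so the p-values measure a spread between libraries that may be technical.

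The summed level of the 228 genes was highest in WT, then GFP, GSTA4 and OSK. The 3 WT libraries held 7029, 6949 and 7013 CPM, the GFP libraries 6719, 6664 and 6771, the GSTA4 libraries 6538, 6584 and 6641, and the OSK libraries 6265, 6209 and 6098. No 2 groups overlapped after the scaling between libraries. GFP replicate 1 had a scaling factor of 1.05, against 1 in WT replicates 2 and 3. The separation of GFP from WT rests on this scaling. In these bulk libraries, fewer cells with a transcript and less of it per cell cannot be told apart. Both classes stood lower in OSK than in GFP. The KRAB genes summed to 3049 ± 24.1 CPM in GFP and 2679 ± 59 in OSK (SD, n = 3 each), and the genes without KRAB to 3669 ± 69.7 and 3512 ± 44.5. The classes differed in the other groups. KRAB genes stood at 3081 ± 31.9 CPM in WT, overlapping GFP, and at 2908 ± 53.9 in GSTA4, below GFP. The overlap with WT came from GFP replicate 1 alone, at 3072 CPM. GFP replicates 2 and 3, at 3051 and 3024, lay below the WT libraries (3054 to 3116). Without GFP replicate 1 the median log2 fold change in GFP against WT was -0.06 with KRAB and -0.09 without. With it, the medians were 0.00 and -0.08. Genes without KRAB stood at 3916 ± 23.2 in WT, above GFP, and at 3680 ± 25.8 in GSTA4, within the range of GFP.

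**Figure D1:**
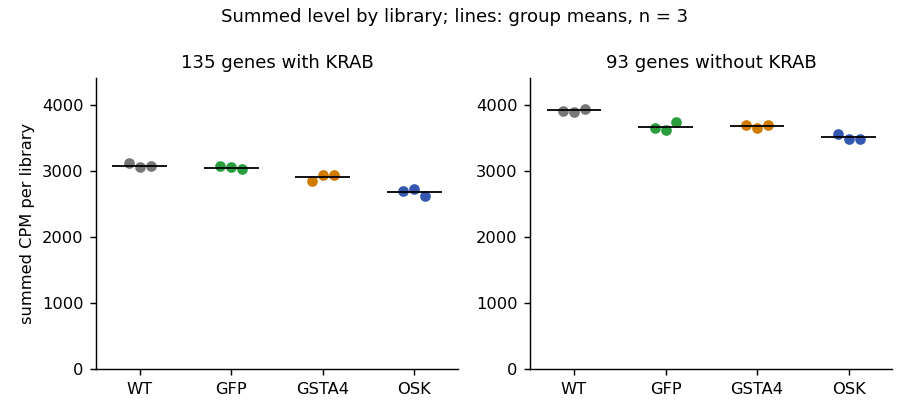
Summed CPM per library (vertical axis, from 0) of the 135 genes with a KRAB box and the 93 without one in WT, GFP, GSTA4 and OSK; points are libraries and lines are group means. The OSK libraries lie lowest in both panels, at 2612 to 2723 and 3486 to 3563 CPM.

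Single genes moved little. The ratio of the highest to the lowest group mean had a median of 1.34 over the 228 genes, was below 1.5 in 186 and reached 2 in 9, with ZNF711 highest at 3.06. The SD within a group had a median of 8.33% of the mean. An edgeR test over the 4 groups called 151 of the 228 genes (66.2%), and over all 15179 genes tested it called 66.9%. Among tested protein-coding genes of at least 10 CPM, the level of the ZNF genes, it called 78.1%. The groups took the ends unevenly. Among these 151 genes the highest mean belonged to WT for 68, to GFP for 38, to GSTA4 for 32 and to OSK for 13. The lowest belonged to OSK for 84, to GSTA4 for 34, to GFP for 19 and to WT for 14. Of the 88 KRAB genes among them, OSK was lowest in 56 and highest in 4.

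In OSK against GFP, 77 ZNF genes fell and 10 rose, which is 38.2% called against 45.9% of all genes tested. In 114 ZNF genes (50%) every OSK library lay on one side of every GFP library, against 54.7% of all genes. Over all genes tested 22.8% fell and 23.1% rose in the same contrast, and the ZNF genes stood at 33.8% and 4.39%. Their median log2 fold change was -0.16, against -0.02 over all genes tested. Of the 135 KRAB genes 53 fell and 3 rose, with a median of -0.22. Of the 93 without KRAB 24 fell and 7 rose, with a median of -0.10. The ZNF genes below 10 CPM stood on the same side, with 50 lower and 6 higher of 203 tested, and so did the 73 tested genes of the related ZBTB, ZSCAN, ZKSCAN and ZFP series, with 34 lower and 3 higher. Protein-coding genes of at least 10 CPM, the level class of the members, had 2825 higher and 2248 lower of 9285, with a median of 0.04. Scaling by library size alone shifted all genes to 2761 higher and 4180 lower, and the ZNF genes to 5 higher and 102 lower. The sizes were modest: only ZNF853, ZNF711, ZNF529 and ZNF135 fell by 1 or more on the log2 scale, and none rose by 1.

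**Figure D2:**
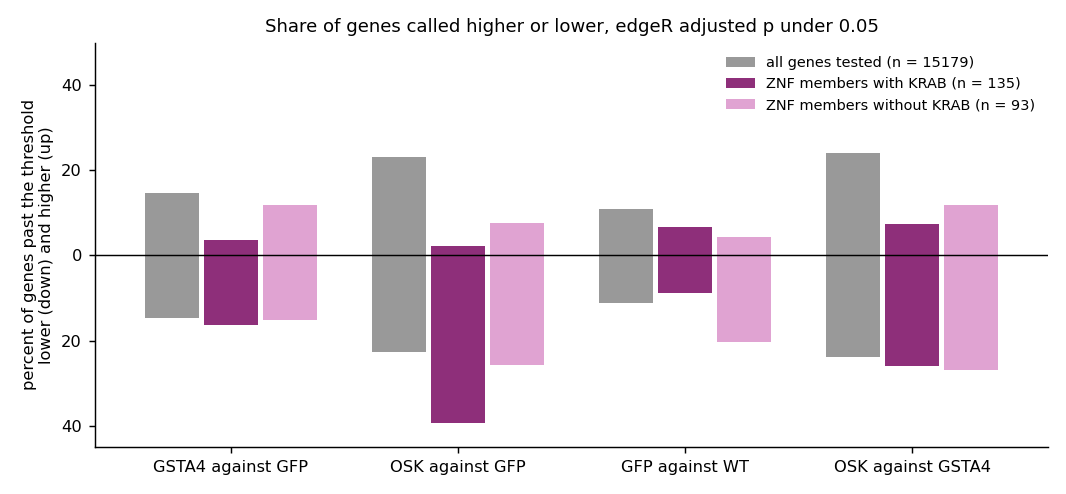
Share of genes (vertical axis, percent) past the edgeR threshold in each of the 4 comparisons, higher above the line and lower below it, for all 15179 genes tested, the 135 ZNF genes with KRAB and the 93 without. In OSK against GFP 53 KRAB genes lie below the line and 3 above it, while the bars for all genes are near equal.

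In GSTA4 against GFP, 36 ZNF genes fell and 16 rose, against a background of 14.6% lower and 14.7% higher over all genes tested. The ZNF shares were 15.8% and 7.02%, so the fall was near the background and the rise below it. Among protein-coding genes of at least 10 CPM, 16.8% fell and 19.7% rose. The median was -0.05, against 0.01 over all genes. Of the KRAB genes 22 fell and 5 rose, and of the others 14 fell and 11 rose. In GFP against WT, 31 fell and 13 rose, which is 13.6% and 5.7% of the ZNF genes. The background was 11.2% lower and 11.0% higher over all genes tested, and 16% and 11.9% among protein-coding genes of at least 10 CPM. Here the KRAB genes had 12 lower and 9 higher, and the genes without KRAB 19 lower and 4 higher. The count of 44 depended on single libraries: it was 28 without WT replicate 1, 29 without GFP replicate 1 and 21 without GFP replicate 2. In OSK against GSTA4, 60 fell and 21 rose (background 23.8% lower and 24.1% higher), with ZNF shares of 26.3% and 9.21%. Protein-coding genes of at least 10 CPM stood at 26.8% lower and 29.8% higher. The OSK and GSTA4 groups did not overlap in 110 ZNF genes (48.2%), against 58.0% of all genes tested. GSTA4 against GFP and OSK against GFP share the GFP libraries, and OSK against GSTA4 shares a group with each, so these counts are not independent. Against WT in place of GFP, 82 ZNF genes were called in GSTA4, where 38.6% of all genes tested were called, and 110 had groups apart, where 49.0% of all genes had. In OSK 96 were lower and 14 higher than in WT, where 45.4% of all genes were called, 22.7% in each direction.

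**Figure D3:**
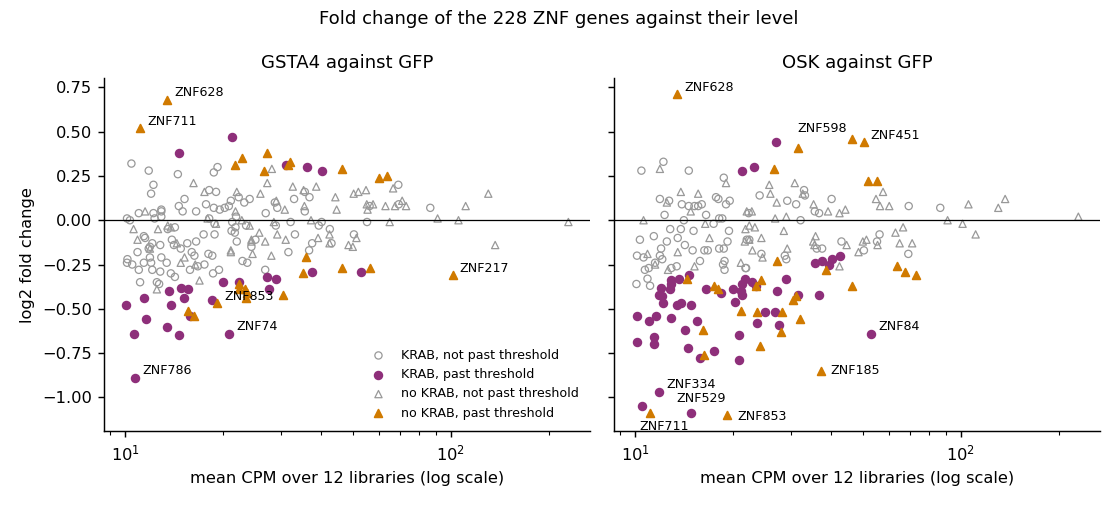
Log2 fold change (vertical axis) against the mean CPM over 12 libraries (horizontal, log scale) for the 228 genes in GSTA4 against GFP and OSK against GFP; filled symbols passed the edgeR threshold, circles have a KRAB box and triangles do not. In OSK against GFP the filled symbols lie mostly below 0, from -1.10 to 0.71.

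The gene with the widest range was ZNF711, an X-linked zinc finger protein that recruits the histone demethylase PHF8 and is linked to intellectual disability. Its levels were 14.2, 12.9 and 12.7 CPM (WT), 11.6, 9.61 and 10.9 (GFP), 15.1, 16.1 and 14.9 (GSTA4), and 5.55, 5.06 and 4.43 (OSK). OSK lay below every other group and GSTA4 above, with no overlap between any 2 of GFP, GSTA4 and OSK. The log2 fold change was -1.09 (SE 0.14, adjusted p 1.97e-06) in OSK against GFP, 0.52 (SE 0.126, adjusted p 0.00353) in GSTA4 against GFP and -1.61 (SE 0.136, adjusted p 3.49e-09) in OSK against GSTA4. ZNF711 thus rose in GSTA4 and fell in OSK against the same control, and its 3 calls held in every alternative run.

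ZNF853, which has no KRAB box and no well-established role, had 23, 28.8 and 26.6 CPM (WT), 22.1, 22.8 and 24.5 (GFP), 18.2, 15.9 and 15.8 (GSTA4), and 11.5, 10.5 and 10.5 (OSK). Its OSK libraries were lowest, its GSTA4 libraries lay between these and GFP, and none of these 3 groups overlapped. The log2 fold changes were -1.10 (SE 0.11, adjusted p 6.62e-08) for OSK and -0.47 (SE 0.106, adjusted p 0.00193) for GSTA4, each against GFP. ZNF529, a KRAB gene of chromosome 19, had 13.6, 15.6 and 14.3 CPM (WT), 22.1, 20.4 and 17.2 (GFP), 15.4, 15.8 and 14.9 (GSTA4), and 10.5, 10.4 and 7.18 (OSK). All OSK libraries were below all others, at -1.09 (SE 0.138, adjusted p 1.66e-06) against GFP. In GFP it was above WT (log2 fold change 0.45, SE 0.132, adjusted p 0.0172), a call lost without GFP replicate 1 (log2 fold change 0.37, adjusted p 0.0822) and without GFP replicate 2 (0.44, 0.0605). It overlaps 3 genes on the opposite strand, its antisense RNA among them.

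ZNF135 and ZNF334, 2 further KRAB genes, were also lowest in OSK. ZNF135 had 10.1, 12.1 and 12 CPM (WT), 11.8, 12.8 and 15.1 (GFP), 9.91, 10.3 and 13.3 (GSTA4), and 5.98, 6.65 and 6.61 (OSK), and its log2 fold change against GFP was -1.05 (SE 0.153, adjusted p 9.93e-06). ZNF334 had 11.6, 14.5 and 15.2 CPM (WT), 13.6, 11.9 and 11.5 (GFP), 13.6, 14.5 and 16.6 (GSTA4), and 7.83, 5.06 and 6.05 (OSK), with -0.97 (SE 0.163, adjusted p 5.5e-05) against GFP and -1.24 (SE 0.16, adjusted p 1.62e-06) against GSTA4. For both genes the OSK libraries lay below the 9 others and the other 3 groups overlapped. ZNF185 differs from the rest of the series: its product is a LIM-domain protein of the actin cytoskeleton, and no C2H2 finger was found in it. It had 34.2, 43.8 and 47.6 CPM (WT), 40.9, 37 and 48.3 (GFP), 40.5, 38.1 and 47.3 (GSTA4), and 21.5, 22.3 and 26.1 (OSK). WT, GFP and GSTA4 overlapped, and the OSK libraries lay below these 9, with -0.85 (SE 0.125, adjusted p 1.04e-05) against GFP and -0.85 (SE 0.124, adjusted p 8.73e-06) against GSTA4.

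**Figure D4:**
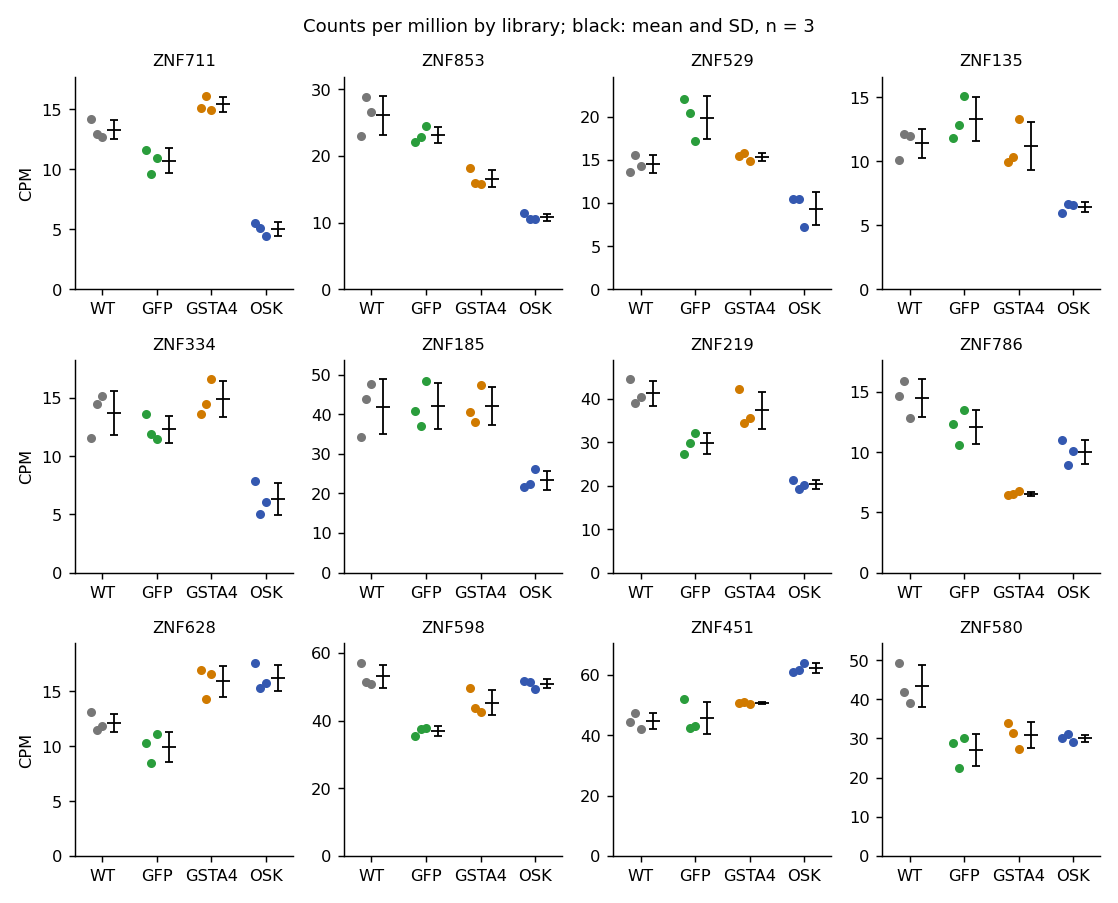
CPM by library (vertical axes, from 0) of 12 ZNF genes in WT, GFP, GSTA4 and OSK; coloured points are libraries and black marks are the mean and SD (n = 3). ZNF711 to ZNF219 are lowest in OSK, ZNF786 is lowest in GSTA4, ZNF628 is high in GSTA4 and OSK, ZNF451 is highest in OSK, and ZNF598 and ZNF580 are lower in GFP than in WT.

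Among the genes that rose, ZNF628 moved the same way in both ORF lines. It had 13.1, 11.5 and 11.8 CPM (WT), 10.3, 8.46 and 11.1 (GFP), 16.9, 14.3 and 16.6 (GSTA4), and 17.6, 15.3 and 15.8 (OSK). The GSTA4 and OSK libraries overlapped each other and lay above all GFP libraries. The log2 fold change was 0.71 (SE 0.127, adjusted p 0.000119) in OSK and 0.68 (SE 0.127, adjusted p 0.00035) in GSTA4 against GFP, and every alternative kept both calls. The gene lies on chromosome 19, has no KRAB box and overlaps a gene on the opposite strand.

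The 7 genes on the list of RNA and ribosome factors split. ZNF598, the E3 ubiquitin ligase that marks collided ribosomes, had 57.1, 51.5 and 50.7 CPM (WT), 35.4, 37.5 and 37.9 (GFP), 49.5, 43.7 and 42.6 (GSTA4), and 51.8, 51.5 and 49.4 (OSK). GFP was lowest and did not overlap any other group, so ZNF598 fell in GFP against WT (log2 fold change -0.52, SE 0.0779, adjusted p 7.63e-05) and rose in OSK against GFP (log2 fold change 0.46, SE 0.0783, adjusted p 5.85e-05). It also rose in GSTA4 against GFP (log2 fold change 0.29, SE 0.0788, adjusted p 0.0076), a call lost without GSTA4 replicate 1 (0.23, adjusted p 0.0563). ZNF622, a factor of the last steps of 60S ribosomal subunit formation, had 53.2, 50 and 61.8 CPM (WT), 44.6, 47 and 49.8 (GFP), 52.1, 53.6 and 52.1 (GSTA4), and 55.4, 54.6 and 54.3 (OSK). Its rise in OSK against GFP was 0.22 (SE 0.0784, adjusted p 0.0284) and was lost without any 1 of GFP replicate 1 (0.18, adjusted p 0.105), GFP replicate 2 (0.22, 0.0586), OSK replicate 1 (0.22, 0.058) or OSK replicate 2 (0.22, 0.0604), and with scaling by library size alone (0.15, 0.126).

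ZNF330, a nucleolar protein, went the other way in OSK. Its levels were 64.6, 65.9 and 66.1 CPM (WT), 71, 69.3 and 74.2 (GFP), 68, 79.5 and 79.7 (GSTA4), and 60.5, 59.2 and 55.9 (OSK), with -0.29 (SE 0.0707, adjusted p 0.00212) against GFP and -0.37 (SE 0.0705, adjusted p 0.00018) against GSTA4, and the OSK libraries lay below the 9 others. The splicing factors ZNF326 and ZNF830, the nuclear RNA-binding protein ZNF638 and the double-stranded RNA-binding protein ZNF346 were not called against GFP in either ORF line. Their log2 fold changes ran from -0.10 to 0.21 in OSK and from -0.12 to 0.18 in GSTA4. The spindle list held 1 member, ZNF207, a microtubule-binding protein that stabilises the checkpoint protein BUB3. Its means in WT, GFP, GSTA4 and OSK were 118.3, 128.9, 143.0 and 134.9 CPM, with no call against GFP.

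All 8 genes on the list of chromatin complex partners differed among the 4 groups, as did 66.9% of all genes tested and 78.1% of protein-coding genes of at least 10 CPM. ZNF217, an oncogene product found with CtBP and CoREST corepressors, had 110.5, 102.8 and 114.2 CPM (WT), 108.1, 104.9 and 108.4 (GFP), 84.3, 83 and 91.2 (GSTA4), and 105.6, 100.4 and 111.6 (OSK). GSTA4 was below the other 3 groups, whose libraries overlapped, with -0.31 (SE 0.0634, adjusted p 0.000752) against GFP. ZNF609, a partner of the cohesin loader NIPBL and of Integrator, had 138.4, 147.4 and 139.9 CPM (WT), 132.6, 134.4 and 143.8 (GFP), 124.7, 125.7 and 122.9 (GSTA4), and 151.1, 147.4 and 147.3 (OSK). Its GSTA4 libraries were lowest and its OSK libraries highest or level with WT, with 0.26 (SE 0.0551, adjusted p 0.000636) in OSK against GSTA4 and no call against GFP in either line (adjusted p 0.0669 for GSTA4, 0.0875 for OSK).

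ZNF592, ZNF687 and ZNF532 are known from one complex around the reader protein ZMYND8, and they did not move together. ZNF592 had 133.0, 135.0 and 125.5 CPM (WT), 95.7, 96.1 and 95.4 (GFP), 102.7, 90.8 and 94.4 (GSTA4), and 109.8, 99.5 and 97.4 (OSK), and WT stood apart from the 9 other libraries, with -0.45 (SE 0.0636, adjusted p 4.13e-05) in GFP against WT. ZNF532 had 14.4, 16.5 and 16.8 CPM (WT), 18.6, 20.1 and 17.7 (GFP), 19.9, 21.3 and 22 (GSTA4), and 15.4, 13.4 and 15 (OSK), and fell in OSK with -0.37 (SE 0.106, adjusted p 0.00726) against GFP. ZNF687 rose in GSTA4 against GFP with 0.24 (SE 0.0715, adjusted p 0.0164), a call lost without GFP replicate 1 (0.18, adjusted p 0.0901) and without GSTA4 replicate 1 (0.22, 0.0576). ZNF335, a subunit of a histone H3K4 methyltransferase complex, had 33.2, 29.3 and 31.9 CPM (WT), 24.6, 27.5 and 28.7 (GFP), 34.5, 34.5 and 31.5 (GSTA4), and 37.1, 36.7 and 34 (OSK). Its GFP libraries lay below all others, with 0.41 (SE 0.0864, adjusted p 0.00053) in OSK and 0.31 (SE 0.0869, adjusted p 0.00936) in GSTA4, the latter lost without GFP replicate 1 (0.25, adjusted p 0.0532). ZNF644, a partner of the methyltransferases G9a and GLP, was not called in any of the 4 main comparisons, and its log2 fold change in OSK against GFP was -0.18 (adjusted p 0.057).

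Of the 11 promoter and distal binding factors without KRAB, 5 fell in OSK against GFP (45.5%, against 22.8% of all genes tested) and none rose (against 23.1%). In GSTA4 2 rose and 2 fell, 18.2% each way, near the 14.7% and 14.6% of all genes. ZNF703, a corepressor amplified in luminal breast cancer, had 30, 26.4 and 26.6 CPM (WT), 28.8, 24.9 and 26 (GFP), 26.8, 26 and 25.5 (GSTA4), and 19, 14.1 and 15.6 (OSK). The OSK libraries lay below the 9 others, whose groups overlapped, with -0.71 (SE 0.107, adjusted p 1.49e-05) against GFP. ZNF219, known as a partner of SOX9 in cartilage, had 44.5, 39 and 40.4 CPM (WT), 27.4, 29.9 and 32.2 (GFP), 42.3, 34.4 and 35.6 (GSTA4), and 21.4, 19.3 and 20.2 (OSK). It was lowest in OSK, at -0.56 (SE 0.099, adjusted p 0.000104) against GFP and -0.89 (SE 0.0974, adjusted p 1.79e-07) against GSTA4, and it fell in GFP against WT (log2 fold change -0.47, SE 0.0938, adjusted p 0.00133). ZNF219 overlaps ARHGEF40 on the opposite strand.

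ZNF281, a factor studied in pluripotency and stem cell maintenance, fell in both ORF lines. Its levels were 31, 33.9 and 38.4 CPM (WT), 36, 35.1 and 35.8 (GFP), 26.1, 26.5 and 27.3 (GSTA4), and 26.3, 24.6 and 27.6 (OSK). Neither GSTA4 nor OSK overlapped GFP, and they overlapped each other, with -0.42 (SE 0.088, adjusted p 0.00104) and -0.45 (SE 0.0881, adjusted p 0.000304). ZNF395, a hypoxia-induced factor, moved in opposite directions. It had 64.1, 69 and 68.3 CPM (WT), 58.8, 64.7 and 64.7 (GFP), 72.3, 72.1 and 79.9 (GSTA4), and 50.9, 54.8 and 51.6 (OSK). GSTA4 was above and OSK below GFP without overlap, at 0.25 (SE 0.0692, adjusted p 0.00885) and -0.26 (SE 0.0704, adjusted p 0.00494), and the former call was lost without GSTA4 replicate 3 (0.21, adjusted p 0.0602). ZNF143, an activator of many housekeeping promoters, had 31, 26.7 and 25.4 CPM (WT), 20.9, 23.4 and 23.4 (GFP), 18.4, 16.1 and 18.3 (GSTA4), and 23.4, 21.4 and 21.7 (OSK). GSTA4 was lowest, at -0.36 (SE 0.103, adjusted p 0.0116) against GFP, a call lost without GSTA4 replicate 2 (-0.30, adjusted p 0.0678), and OSK was at -0.03. ZNF444 was the remaining factor to fall in OSK, at -0.28 (SE 0.0928, adjusted p 0.0164), a call lost without GFP replicate 2 (-0.27, adjusted p 0.0506) and without OSK replicate 2 (-0.25, 0.0726). ZNF24, ZNF148, ZNF462 and ZNF503 passed the threshold in none of the 4 comparisons, and ZNF692 in GFP against WT only, at -0.35 (SE 0.105, adjusted p 0.0196), lost without WT replicate 1 (-0.28, adjusted p 0.073) and without GFP replicate 2 (-0.30, 0.0942).

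Of the 15 KRAB repressors with described functions, 3 fell in OSK against GFP and none rose, and in GSTA4 against GFP 2 fell and none rose. The shares that fell, 20% and 13.3%, were near the 22.8% and 14.6% of all genes tested. ZNF91, which restrains SVA retrotransposons, had 29.2, 28.1 and 28.4 CPM (WT), 40.5, 26.1 and 28.3 (GFP), 24.5, 26 and 27.2 (GSTA4), and 21.7, 24.9 and 19.1 (OSK). Its GFP replicate 1 stood far above the other 11 libraries. The log2 fold change in OSK against GFP was -0.52 (SE 0.13, adjusted p 0.00248), and -0.31 without GFP replicate 1. ZNF10, whose KRAB box is the one used in many engineered repressors, fell with -0.39 (SE 0.137, adjusted p 0.0255), a call lost without GFP replicate 1 (-0.30, adjusted p 0.12) or any 1 of OSK replicate 1 (-0.39, 0.0563), replicate 2 (-0.36, 0.074) and replicate 3 (-0.39, 0.056). ZNF202, a repressor of lipid metabolism genes, fell with -0.38 (SE 0.126, adjusted p 0.0192), lost without GFP replicate 1 (-0.31, adjusted p 0.0796) without OSK replicate 3 (-0.29, 0.0997) and with no filter on low counts (-0.36, 0.0703).

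ZNF274, which brings SETDB1 to the 3′ ends of other zinc finger genes, and ZNF445, a keeper of imprints, were not called in any of the 4 comparisons. ZNF274 had 46.7, 41 and 45.6 CPM (WT), 36, 41.3 and 36.9 (GFP), 37.4, 38.7 and 36.9 (GSTA4), and 44.3, 39.7 and 40.2 (OSK). ZNF445 had 51.8, 55.8 and 54.5 CPM (WT), 54.5, 50 and 52.8 (GFP), 47.5, 49.5 and 51.8 (GSTA4), and 47.5, 48.4 and 43.9 (OSK). The OSK libraries of ZNF274 overlapped GFP, while those of ZNF445 lay below GFP with a log2 fold change of -0.17 (adjusted p 0.0582). ZNF746, the PARIS repressor of PPARGC1A, had 36.8, 35.8 and 38.8 CPM (WT), 33.5, 30.7 and 31.2 (GFP), 31.1, 29.3 and 29.7 (GSTA4), and 34.6, 35.3 and 35.1 (OSK), and no call against GFP in either ORF line. ZNF496 stood at 59.3, 71.4 and 69.1 CPM (WT), 63.6, 71.8 and 74.2 (GFP), 80.3, 80.9 and 79.1 (GSTA4), and 66.9, 60.6 and 56.4 (OSK), and fell in OSK against GSTA4 with -0.39 (SE 0.0811, adjusted p 0.000488). In GSTA4 against GFP the 2 falls on this list were ZNF331 (log2 fold change -0.44, SE 0.129, adjusted p 0.014), lost without GFP replicate 2 (-0.33, adjusted p 0.0911) or GSTA4 replicate 2 (-0.37, 0.0725), and ZNF436 (log2 fold change -0.39, SE 0.118, adjusted p 0.0182), lost without GFP replicate 1 (-0.35, 0.0648), GFP replicate 3 (-0.34, 0.0669), GSTA4 replicate 2 (-0.36, 0.0613) or GSTA4 replicate 3 (-0.32, 0.0837).

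The genes that KRAB proteins act through were compared from a list of 25 partners. In OSK against GFP 7 of the 25 fell and 6 rose, and in GSTA4 against GFP 4 fell and 3 rose. The shares of 28% and 24% in OSK were near the 22.8% and 23.1% of all genes tested, and those of 16% and 12% in GSTA4 near 14.6% and 14.7%. TRIM28, the KRAB corepressor, averaged 408.2, 343.7, 381.8 and 347.4 CPM in WT, GFP, GSTA4 and OSK, and its log2 fold change in OSK against GFP was 0.02. Against WT it was lower in GFP (-0.25, adjusted p 0.00975) and in OSK (-0.23, adjusted p 0.00595), and not called in GSTA4 (-0.10, adjusted p 0.259). SETDB1 had 39.6, 40.6, 44.9 and 36.0 CPM in the same order, with no call against GFP and a fall in OSK against GSTA4 (log2 fold change -0.32, adjusted p 0.00324). CBX5, the heterochromatin protein HP1-alpha, had 122.8, 151.3, 134.6 and 139.6 CPM and fell in GSTA4 against GFP by 0.17 on the log2 scale. The other heterochromatin proteins of this family, CBX1 and CBX3, fell in OSK against GFP (log2 fold change -0.33 and -0.31, adjusted p 0.000122 and 0.000137). Of the histone deacetylase genes on the list, HDAC1 rose there (0.48, adjusted p 5.33e-06) and HDAC2 fell (-0.28, adjusted p 0.000766).

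Among called genes whose groups did not overlap, the 6 KRAB genes with the strongest falls in GSTA4 against GFP were ZNF786, ZNF74, ZNF615, ZNF555, ZNF250 and ZNF616. ZNF786, on chromosome 7, had 14.7, 15.9 and 12.8 CPM (WT), 12.3, 10.6 and 13.5 (GFP), 6.42, 6.53 and 6.74 (GSTA4), and 11, 8.93 and 10.1 (OSK). Its GSTA4 libraries lay below all 9 others, at -0.89 (SE 0.143, adjusted p 8.05e-05) against GFP, and it rose in OSK against GSTA4 (log2 fold change 0.61, SE 0.145, adjusted p 0.00164). ZNF615 had 16.3, 14 and 17 CPM (WT), 19.2, 16.5 and 16.8 (GFP), 10.5, 12.3 and 10.7 (GSTA4), and 13.8, 15.6 and 13 (OSK), and its GSTA4 libraries were again below all others, at -0.65 (SE 0.122, adjusted p 0.000399). ZNF74 had 32, 31.3 and 26.8 CPM (WT), 21.3, 23.6 and 27.2 (GFP), 14.7, 15.6 and 16 (GSTA4), and 14.8, 15.3 and 11.5 (OSK), at -0.64 (SE 0.12, adjusted p 0.000365) in GSTA4 and -0.79 (SE 0.121, adjusted p 1.76e-05) in OSK, and the 2 lines overlapped. ZNF250 (log2 fold change -0.60, SE 0.132, adjusted p 0.00176), ZNF555 (log2 fold change -0.64, SE 0.144, adjusted p 0.00207) and ZNF616 (log2 fold change -0.56, SE 0.15, adjusted p 0.00779) fell too, the last lost without GFP replicate 3 (-0.44, adjusted p 0.0507). ZNF250 and ZNF616 also fell in OSK against GFP, at -0.48 (SE 0.131, adjusted p 0.00485) and -0.54 (SE 0.15, adjusted p 0.00583). ZNF615 fell there with -0.31 (SE 0.119, adjusted p 0.042), a call lost with DESeq2 (-0.30, 0.0651), with no filter (-0.29, 0.116) and without GFP replicate 1 (-0.23, 0.167), GFP replicate 3 (-0.33, 0.0568), OSK replicate 1 (-0.28, 0.112) or OSK replicate 3 (-0.24, 0.155). On the same terms the rises in GSTA4, beyond ZNF628 and ZNF711, were led by the KRAB gene ZNF589 (log2 fold change 0.47, SE 0.108, adjusted p 0.00233) and by ZNF516, a CtBP partner known from brown fat (log2 fold change 0.38, SE 0.0976, adjusted p 0.00533). ZNF211 (log2 fold change 0.38, SE 0.129, adjusted p 0.0332) and ZNF134 (log2 fold change 0.35, SE 0.115, adjusted p 0.0261) followed. The ZNF211 call was lost without GFP replicate 1 (0.39, adjusted p 0.0629), GFP replicate 3 (0.28, 0.151), GSTA4 replicate 1 (0.31, 0.131) or GSTA4 replicate 3 (0.37, 0.0799). The ZNF134 call was lost without GFP replicate 2 (0.35, 0.0668), GFP replicate 3 (0.25, 0.149), GSTA4 replicate 1 (0.36, 0.0571) or GSTA4 replicate 3 (0.33, 0.0803).

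Among called genes whose groups did not overlap, the rises in OSK against GFP were led, after ZNF628 and ZNF598, by ZNF451, ZNF431, ZNF335 and ZNF777. ZNF451, a SUMO ligase, had 44.4, 47.4 and 41.9 CPM (WT), 51.9, 42.4 and 42.9 (GFP), 50.5, 51 and 50.2 (GSTA4), and 60.9, 61.5 and 64 (OSK). The OSK libraries were above the 9 others, at 0.44 (SE 0.0794, adjusted p 0.000112) against GFP and 0.30 (SE 0.0787, adjusted p 0.00373) against GSTA4. ZNF431, a KRAB gene on chromosome 19, had 30.2, 25.9 and 26.3 CPM (WT), 24.1, 25 and 23.1 (GFP), 25.5, 25.8 and 23 (GSTA4), and 35, 32 and 31.3 (OSK). Its OSK libraries were also above the 9 others, at 0.44 (SE 0.0903, adjusted p 0.000409). ZNF777 rose with 0.30 (SE 0.116, adjusted p 0.0381), lost without GFP replicate 1 (0.28, adjusted p 0.099), GFP replicate 3 (0.23, 0.157) or any 1 of OSK replicate 1 (0.33, 0.0514), replicate 2 (0.28, 0.105) and replicate 3 (0.32, 0.0649). It was also lost with scaling by library size alone (0.23, 0.117).

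In OSK against GSTA4 the falls, among called genes whose groups did not overlap, were led by ZNF711, ZNF334, ZNF471, ZNF219, ZNF185 and ZNF618. ZNF471, a KRAB gene on chromosome 19, had 15.9, 14.9 and 12.7 CPM (WT), 15.2, 17 and 14.8 (GFP), 17.3, 16.8 and 22 (GSTA4), and 10.7, 8.74 and 9.08 (OSK), with the OSK libraries below the 9 others at -0.98 (SE 0.135, adjusted p 4.28e-06) against GSTA4. ZNF618, a protein known to bind UHRF2, had 7.53, 14.2 and 12.6 CPM (WT), 15.9, 20 and 21.5 (GFP), 20.2, 22.7 and 23.8 (GSTA4), and 12.4, 12.7 and 12.2 (OSK). WT and OSK were low and overlapped, and GFP and GSTA4 were high, with -0.84 (SE 0.163, adjusted p 0.00023) in OSK against GSTA4 and 0.75 (SE 0.166, adjusted p 0.00284) in GFP against WT. The rises, beyond ZNF786, included ZNF536, a gene of neuronal differentiation, which had 12.7, 21.1 and 15.7 CPM (WT), 17.6, 16.3 and 16 (GFP), 12.1, 10.7 and 12 (GSTA4), and 20.8, 17.9 and 16.5 (OSK), and 0.66 (SE 0.149, adjusted p 0.000963). It fell in GSTA4 against GFP with -0.51 (SE 0.151, adjusted p 0.0135), a call lost without GFP replicate 1 (-0.47, 0.0556) and without GSTA4 replicate 2 (-0.46, 0.0623). ZNF436 (log2 fold change 0.47, SE 0.117, adjusted p 0.00244) and the X-linked ZNF81 (log2 fold change 0.43, SE 0.122, adjusted p 0.00601) also rose. ZNF845 (log2 fold change 0.46, SE 0.155, adjusted p 0.0182) was lost without OSK replicate 2 (0.31, adjusted p 0.14) or GSTA4 replicate 3 (0.36, 0.0974), and ZNF714 (log2 fold change 0.45, SE 0.152, adjusted p 0.0191) without OSK replicate 2 (0.32, 0.131), GSTA4 replicate 1 (0.39, 0.0787) or GSTA4 replicate 2 (0.38, 0.0857). ZNF845 and ZNF714 have close relatives on chromosome 19.

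The largest changes from WT to GFP, among called genes whose groups did not overlap, were in the following genes. ZNF580, which shares its locus and strand with ZNF581, had 49.3, 41.8 and 39 CPM (WT), 28.7, 22.5 and 30.2 (GFP), 33.9, 31.4 and 27.3 (GSTA4), and 30, 31 and 29.1 (OSK). The WT libraries were above the 9 others, at -0.68 (SE 0.11, adjusted p 0.000199). ZNF768 had 44.9, 32.4 and 32.7 CPM (WT), 24, 23.7 and 30.3 (GFP), 28.7, 29.8 and 25.6 (GSTA4), and 28.9, 24.8 and 25.5 (OSK). WT was again highest, at -0.50 (SE 0.123, adjusted p 0.00661), and -0.33 without WT replicate 1, the highest library. ZNF707 (log2 fold change -0.49, SE 0.111, adjusted p 0.00378) and ZNF205 (log2 fold change -0.68, SE 0.19, adjusted p 0.0147) fell as well, the latter lost without WT replicate 1 (-0.50, adjusted p 0.0664) and without GFP replicate 2 (-0.65, 0.0569). Among the rises, ZNF608, the relative of ZNF609, had 36.8, 59.8 and 60.4 CPM (WT), 70.3, 72.4 and 73.2 (GFP), 68.6, 71 and 74.3 (GSTA4), and 62.9, 65 and 70.1 (OSK). Its WT replicate 1 was far below the 2 other WT libraries, and the log2 fold change of 0.46 (SE 0.12, adjusted p 0.00879) became 0.26 without it. ZNF483 rose with 0.41 (SE 0.101, adjusted p 0.00621). ZNF92 (log2 fold change 0.55, SE 0.152, adjusted p 0.0134) and ZNF677 (log2 fold change 0.50, SE 0.152, adjusted p 0.0221) also rose. Without WT replicate 2 neither was called (log2 fold change 0.40 for each, adjusted p 0.0684 and 0.0945). The ZNF92 call was also lost without GFP replicate 1 (0.41, 0.0824), and the ZNF677 call without GFP replicate 2 (0.50, 0.0605) or GFP replicate 3 (0.49, 0.0558). ZNF677 fell again in OSK, at -0.57 (SE 0.154, adjusted p 0.00469) against GFP and -0.61 (SE 0.153, adjusted p 0.0024) against GSTA4.

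Levels were compared between genes per length. Per kilobase of exon, ZNF664 had the highest mean level at 36.5 CPM, followed by ZNF622 at 30.8 and ZNF330 at 26.7. ZNF664 had 255.2, 257.2 and 256.2 CPM (WT), 226.1, 219.7 and 222.5 (GFP), 219.7, 229.1 and 214.4 (GSTA4), and 246.5, 211.9 and 217.7 (OSK), and among the 4 comparisons of the ORF lines its call was a fall in GFP against WT (log2 fold change -0.20, SE 0.0599, adjusted p 0.0197), lost without GFP replicate 2 (-0.19, adjusted p 0.0679). It was also lower than WT in GSTA4 (-0.21, adjusted p 0.00761) and in OSK (-0.19, adjusted p 0.0152). ZNF655, the most abundant KRAB gene by CPM, was not called in any of the 4 comparisons, with group means from 81.4 to 90.4 CPM. ZNF146, a protein made of fingers only and frequently amplified in tumours, had 83.1, 82.1 and 84.7 CPM (WT), 75.3, 73.4 and 71.3 (GFP), 76.9, 77.3 and 78.5 (GSTA4), and 59.1, 57.3 and 60.7 (OSK), and fell in OSK with -0.31 (SE 0.0599, adjusted p 0.000226) against GFP, below the 9 other libraries. ZNF629 fell in OSK against GSTA4 (log2 fold change -0.24, SE 0.0756, adjusted p 0.0128), lost without OSK replicate 3 (-0.21, adjusted p 0.0644) or GSTA4 replicate 3 (-0.21, 0.0617), and in OSK against WT (-0.21, adjusted p 0.0302). At the other end, ZNF689, ZNF428, ZNF500 and ZNF506 had the highest p-values over the 4 groups, from 0.738 to 0.993. ZNF689 had 10.7, 13.5 and 12.6 CPM (WT), 12.5, 11.8 and 12.5 (GFP), 11.9, 11.9 and 13.3 (GSTA4), and 11.8, 13.5 and 12.2 (OSK), and its 4 groups overlapped. ZNF667, among the genes with the lowest p over the 4 groups, had 28.1, 28.7 and 25 CPM (WT), 19.5, 24 and 19.1 (GFP), 22.3, 20.1 and 23.7 (GSTA4), and 12.5, 14.2 and 13.2 (OSK). Its OSK libraries lay below the 9 others, at -0.65 (SE 0.113, adjusted p 7.97e-05) against GFP.

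Position was described from the annotation. Runs of 4 or more members with less than 500 kb between neighbours were formed after the results were known, and no test was made of them. There were 12 such runs with 105 members. In OSK against GFP the highest share of falls was on chromosome 12, where 5 of 6 members between positions 132918308 and 133214831 (GRCh38) fell and the median log2 fold change was -0.40. On chromosome 19, a run of 6 from 36214602 to 37548762 had 4 falls and a median of -0.42, and a run of 10 from 55476332 to 56626481 had 6 falls and 1 rise. The run of 8 on chromosome 7 had 1 fall and 1 rise, and a run of 4 on chromosome 16 from 3112560 to 3409370 had neither. Both runs of 20 members lie on chromosome 19. In the one from 51571298 to 53580269, all KRAB genes, 7 fell and none rose, and in the one from 57191500 to 58481230 6 fell and none rose. In the same comparison 33.8% of all 228 members fell and 4.39% rose. Over all genes tested the shares were 22.8% and 23.1%. The falls in both runs of 20 were thus near the share of all members.

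The chromosome 12 run was chosen for its values, which are therefore a description. ZNF84, which lies inside it, had 68.2, 61.1 and 69.3 CPM (WT), 61.1, 56.2 and 61.3 (GFP), 47.8, 49.6 and 48.5 (GSTA4), and 37.8, 37.8 and 38.8 (OSK). Its 3 groups GFP, GSTA4 and OSK stood apart in that order, at -0.29 (SE 0.0705, adjusted p 0.00358) in GSTA4 and -0.64 (SE 0.0716, adjusted p 2.69e-07) in OSK against GFP. ZNF26 had 22.5, 16.5 and 17.3 CPM (WT), 21.4, 23.2 and 14.3 (GFP), 13.3, 13.4 and 13.8 (GSTA4), and 12.6, 10 and 11.7 (OSK), at -0.78 (SE 0.159, adjusted p 0.000425) in OSK, and its GFP replicate 3 lay near the GSTA4 libraries. ZNF605 had 22.7, 20.4 and 23.5 CPM (WT), 23, 21 and 22.3 (GFP), 25.9, 23.4 and 22.4 (GSTA4), and 16.9, 16.3 and 17 (OSK), at -0.40 (SE 0.0966, adjusted p 0.00177) in OSK. ZNF891 had 19.7, 17.2 and 21.1 CPM (WT), 17.2, 17.7 and 17.9 (GFP), 16.3, 15.6 and 16.6 (GSTA4), and 15.6, 14 and 10.6 (OSK), at -0.39 (SE 0.127, adjusted p 0.0149) in OSK, a call lost without OSK replicate 3 (-0.25, adjusted p 0.11). ZNF10 had 17.4, 13.6 and 17.1 CPM (WT), 15.4, 12.5 and 13.4 (GFP), 9.59, 12.4 and 11.9 (GSTA4), and 10.7, 10.3 and 10.6 (OSK). ZNF268, the member at the far end, had 18.6, 19.1 and 22.8 CPM (WT), 25.3, 20.2 and 26.2 (GFP), 22.1, 26.9 and 23.8 (GSTA4), and 19.9, 19.6 and 20 (OSK), and its log2 fold change of -0.27 in OSK against GFP did not pass the threshold (adjusted p 0.0562).

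**Figure D5:**
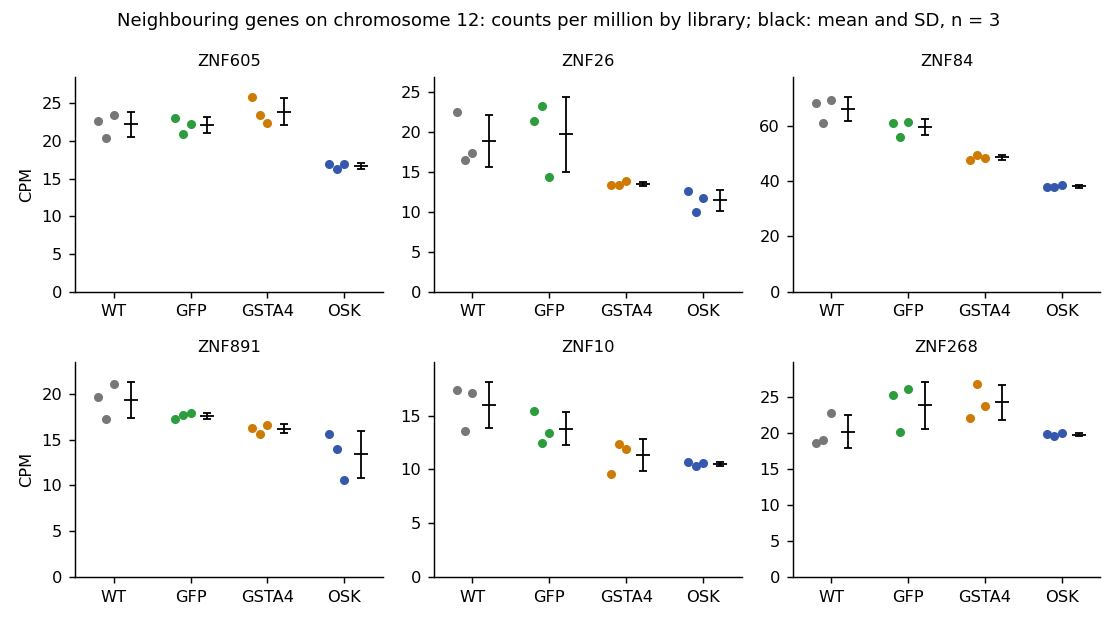
CPM by library (vertical axes, from 0) of the 6 neighbouring ZNF genes of chromosome 12 in WT, GFP, GSTA4 and OSK; coloured points are libraries and black marks are the mean and SD (n = 3). The OSK points lie below all GFP points in each panel, from 10.0 to 12.6 CPM for ZNF26 and from 37.8 to 38.8 for ZNF84.

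The promoters of this run are shown because its genes differed together, with those of ZNF711, ZNF853 and ZNF628 for the widest falls and rise. Each line gives the 250 bases before the RefSeq transcript start (GRCh38.p14), 5′ to 3′ on the gene's strand. Capitals mark matches, on either strand, to 6 letter patterns: the octamer ATGCAAAT of POU factors, CATTGT of SOX factors, GGGNGTGG of KLF factors, the CCAAT box, CCGGAAG of ETS factors, and ACTACA followed by any 2 letters and TCCC, a pattern known from promoters bound by ZNF143. The last was added after these sequences had been seen. Overlapping matches share capitals. ZNF10 and ZNF891 are divergent neighbours whose windows overlap.
ZNF605 (chr12:132956307-132956556, minus strand): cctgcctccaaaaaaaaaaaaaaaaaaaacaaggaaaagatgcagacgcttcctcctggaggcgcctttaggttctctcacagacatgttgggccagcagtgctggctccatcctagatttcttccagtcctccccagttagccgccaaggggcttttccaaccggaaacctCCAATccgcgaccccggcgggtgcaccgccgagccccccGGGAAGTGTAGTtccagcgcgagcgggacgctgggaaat
ZNF26 (chr12:132986117-132986366, plus strand): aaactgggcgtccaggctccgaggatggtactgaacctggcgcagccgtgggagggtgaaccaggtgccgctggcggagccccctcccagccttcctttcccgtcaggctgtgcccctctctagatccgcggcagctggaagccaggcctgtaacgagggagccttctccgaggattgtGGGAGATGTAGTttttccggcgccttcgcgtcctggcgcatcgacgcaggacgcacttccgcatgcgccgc
ZNF84 (chr12:133037259-133037508, plus strand): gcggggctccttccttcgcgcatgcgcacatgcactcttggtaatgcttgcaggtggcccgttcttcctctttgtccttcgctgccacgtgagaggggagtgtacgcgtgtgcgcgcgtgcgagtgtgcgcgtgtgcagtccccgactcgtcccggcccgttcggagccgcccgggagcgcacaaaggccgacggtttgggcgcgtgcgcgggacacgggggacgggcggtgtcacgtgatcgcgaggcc
ZNF891 (chr12:133130275-133130524, minus strand): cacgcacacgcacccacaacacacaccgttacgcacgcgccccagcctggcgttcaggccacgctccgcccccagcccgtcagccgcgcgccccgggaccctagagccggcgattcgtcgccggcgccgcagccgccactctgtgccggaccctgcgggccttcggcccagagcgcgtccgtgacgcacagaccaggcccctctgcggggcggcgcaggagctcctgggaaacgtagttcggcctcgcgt
ZNF10 (chr12:133130377-133130626, plus strand): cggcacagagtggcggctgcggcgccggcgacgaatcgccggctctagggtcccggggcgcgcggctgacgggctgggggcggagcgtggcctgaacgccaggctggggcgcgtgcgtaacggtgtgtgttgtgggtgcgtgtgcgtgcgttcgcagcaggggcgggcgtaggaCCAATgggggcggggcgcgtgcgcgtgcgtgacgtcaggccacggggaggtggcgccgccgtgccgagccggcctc
ZNF268 (chr12:133181245-133181494, plus strand): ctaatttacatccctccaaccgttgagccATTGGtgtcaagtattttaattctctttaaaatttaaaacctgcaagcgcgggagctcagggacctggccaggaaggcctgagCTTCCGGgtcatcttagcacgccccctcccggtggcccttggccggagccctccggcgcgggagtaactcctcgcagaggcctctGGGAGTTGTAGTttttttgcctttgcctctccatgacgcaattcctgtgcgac
ZNF711 (chrX:85243741-85243990, plus strand): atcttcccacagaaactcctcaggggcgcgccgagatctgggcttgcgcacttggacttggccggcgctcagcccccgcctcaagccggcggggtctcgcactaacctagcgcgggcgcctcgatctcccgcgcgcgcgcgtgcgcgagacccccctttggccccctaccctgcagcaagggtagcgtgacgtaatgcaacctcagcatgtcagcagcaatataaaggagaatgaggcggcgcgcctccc
ZNF853 (chr7:6615360-6615609, plus strand): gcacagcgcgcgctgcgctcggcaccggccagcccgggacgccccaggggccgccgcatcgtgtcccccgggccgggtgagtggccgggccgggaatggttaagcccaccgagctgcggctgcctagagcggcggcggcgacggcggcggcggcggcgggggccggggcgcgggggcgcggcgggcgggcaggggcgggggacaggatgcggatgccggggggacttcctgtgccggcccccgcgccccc
ZNF628 (chr19:55476367-55476616, plus strand): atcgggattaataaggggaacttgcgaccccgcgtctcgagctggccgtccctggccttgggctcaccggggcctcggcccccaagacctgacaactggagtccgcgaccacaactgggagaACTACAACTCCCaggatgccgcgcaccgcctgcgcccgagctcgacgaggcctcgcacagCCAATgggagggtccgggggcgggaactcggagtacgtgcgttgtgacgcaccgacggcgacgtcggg

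Matches are letters in a window and not binding sites. The RefSeq-based promoter set used here held 300-base windows, from 250 bases before to 50 after the start, for 197 of the 228 genes. The ETS pattern was found in 85 of these (43.1%), against 10.7% of all 27305 promoters and 20.8% of the 7512 other tested protein-coding genes of at least 10 CPM. The ACTACA pattern was found in 25 (12.7%), against 1.96% and 4.3%. It stood in the windows printed above for ZNF605, ZNF26, ZNF268 and ZNF628. Of the 3 patterns of the OSK factor families, the octamer was found in 1 (0.508%), against 1.05% of the other expressed genes and 1.8% of all promoters. The KLF pattern was found in 29 (14.7%), against 20.5% and 16.6%, and the SOX pattern in 18 (9.14%), against 5.82% and 11%. The CCAAT box was found in 81 (41.1%), against 36.7% and 35.7%. Among the 69 genes with a window that fell in OSK against GFP, the SOX pattern was in 7 (10.1%), the KLF pattern in 8 (11.6%) and the octamer in none. Among the 120 that were not called, these were in 11 (9.17%), 21 (17.5%) and 1. The CCAAT box was in 34 of the genes that fell (49.3%) and in 44 of those not called (36.7%). The ACTACA pattern was in 12 (17.4%) and 11 (9.17%), and the ETS pattern in 27 (39.1%) and 54 (45%). These differences were not tested.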

How the data were processed

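Poly(A) RNA of 12 ARPE-19 libraries was sequenced, and the authors deposited 1 table of read counts per gene. STAR 2.7.1a, featureCounts 1.6.2 and the builds GRCh38/hg38 and GRCm38/mm10 are named in the submitters' processing notes without a role, and the strand setting is not given in the sources used here. The genes and lists were chosen with earlier results of these data known.

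Of 40591 named lines, 15179 passed edgeR's filterByExpr. All 12 libraries entered 1 fit on the group, with TMM scaling, edgeR 4.0.16's quasi-likelihood test and Benjamini-Hochberg adjustment per comparison over all genes tested, with a threshold of 0.05. Each p in the text comes from that test. CPM given by library, as group means, as sums and per kilobase are TMM-scaled. They are the deposited counts divided by the library size times its TMM factor and multiplied by 1000000. The mean over the 12 libraries that decided membership was taken from counts divided by the library total, without TMM. The means quoted at the level threshold are also of this kind. The script was tested on simulated counts. Named genes were the 10 most abundant, those with the lowest and highest p over the 4 groups, those at the level threshold and the role lists. The largest called changes in each direction and comparison were also named, among genes whose libraries did not overlap between the groups compared. For these genes that lack of overlap was set by the choice, and larger changes with overlap may be unnamed. ZNF605, ZNF26 and ZNF891 were named after their values were seen, and the CCAAT and ETS patterns were chosen after results were known. KRAB, SCAN and finger patterns were read in translated GENCODE 29 coding transcripts, in place of the RefSeq proteins planned. Alternatives were DESeq2 1.42.0, other scaling, no filter, a higher level for membership, WT as control, a replicate block and leaving out each library. Same-numbered libraries were not taken as pairs. One marker gene is not reported here.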

Additional observations from a re-analysis of the deposited data

How the results depend on the processing

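Among the 91 genes named, 133 results passed the threshold. Of these 83 stayed past it under every alternative run, 50 fell short under 1 or more and 0 changed direction. Of 231 results that did not pass, 38 passed under 1 or more. With 20 CPM as the level for membership the counts of called genes were 32 in GSTA4 against GFP, 50 in OSK against GFP, 29 in GFP against WT, 51 in OSK against GSTA4 and 91 over the 4 groups, from fewer genes. Of all genes tested, 29.2%, 45.9%, 22.2%, 47.8% and 66.9% were called in the same order. With WT as the control GSTA4 had 82. Leaving out 1 library at a time gave 35 to 57 in GSTA4 against GFP, 72 to 92 in OSK against GFP, 21 to 41 in GFP against WT, 64 to 85 in OSK against GSTA4 and 136 to 150 over the 4 groups. Calls over all genes changed with the libraries too. Without GFP replicate 1, GFP against WT had 1538 higher and 1412 lower of 15476 genes tested, against 1666 and 1703 of 15179 with it. A replicate block gave 55, 88, 48, 86 and 160 members. The correlations of same-numbered libraries ran from -0.0193 to 0.153, so the numbers were not taken as pairing the libraries. Genes near 10 CPM rest on fewer reads than the more abundant members, and related ZNF genes may share reads.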
